A study of Coprinopsis cinerea AmutBmut pab1-1 with 201 samples.

Results

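In the inky cap mushroom Coprinopsis cinerea AmutBmut pab1-1, 153 of the 13617 counted genes (1.12%) had transcripts that peaked in resting basidiospores, the sexual spores sampled at 0 h of germination. These genes were chosen by the measured values themselves. Levels are in CPM, the count scaled to a library of 1000000 counts. A gene was taken where its mean in basidiospores at 0 h was at least 20 CPM and at least 4 times its mean in every other group, with 0.5 CPM added to both. Basidiospores at 4 h of germination only had to be lower, and mycelium overgrown by Trichoderma was left out. Of 3609 genes at 20 CPM or more in basidiospores at 0 h, the rule took 4.24%. At most 200 genes were to be kept, a number that was not reached. The levels that made this choice are described here without a test.

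The strain has mutated A and B mating type loci, so that fruiting bodies develop on a single mycelium. The study measured its polyadenylated RNA by 3′ end sequencing in 201 libraries, 3 for each of 67 groups that cover spore germination, dark-grown mycelium, light, fruiting, starvation and stress. The basidiospore course was sampled at 0, 4, 8 and 12 h, and the labels call all 4 groups germinating, the first of them at 0 h. The course of the oidia, the asexual spores, is represented here by 0 and 18 h. Mycelium from the dark was used at 12, 60, 84, 108, 132 and 156 h, at 156 h as aerial and as attached mycelium. Attached mycelium and hyphal knots, the first aggregates of a fruiting body, came 24 h after 2 h of light, and primordia after 24 h of a cycle of light and darkness. Heat shock (47 °C for 2 h) and freezing (-20 °C for 30 min) were given to mycelium 6 days old, and sclerotia grew for 4 weeks. The label of the sclerotia allows for some mycelium among them. These 3 groups share dark mycelium at 132 h as their control. Sorbitol (10% for 2 h) and peroxide (1 mM for 3 h) share a liquid control. Starvation lasted 24 h on water agar with dark mycelium at 60 h as control, and drought had dark mycelium at 84 h. Hypoxia lasted 24 h in hypoxia bags and had its own control, and for both groups only levels are given.

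Basidiospores form after meiosis on the gills of the cap and are shed into the air. Each is a dormant cell that waits for water and nutrients, and fungal spores are known to carry stored messenger RNA into dormancy. During germination the spore swells, sends out a germ tube and builds a new set of transcripts. Sclerotia are the resting bodies that mycelium forms for survival, and oidia are short-lived asexual spores cut from hyphae. The identifiers of the members are not paired with gene names or products in the files or the reference table, so no function is given to a member and no marker of the spore could be checked.

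Total counts ran from 213736 to 26101402 with a median of 9984538, and the basidiospores at 0 h held 11437981, 11226235 and 18186374. Library 3 of these stood apart. Over the members it had a rank correlation of 0.929 to 0.944 with the libraries at 4 h, against 0.851 to 0.871 for libraries 1 and 2, and it correlated at 0.967 to 0.968 with its own replicates, which reached 0.996 with each other. It was the lowest of the 3 in 91 members, was lower than the mean of the other two by 2 times or more in 19 members and was higher by that much in 0. A few mycelium and primordium libraries held small amounts of the spore-rich transcripts. CopciAB_379049.T0, the most abundant member, was at 63.1 CPM in library 3 of dark mycelium 12 h against 3.12 CPM on average in the other two libraries. It stood at 50.6 against 4.28 CPM in library 3 of dark mycelium 132 h, and at 30.6 against 5.25 CPM in library 2 of primordia 24 h. In these libraries 12, 12 and 11 of the 12 most abundant members were above both other libraries of the group, by a median of 0.199, 0.0872 and 0.102% of their level in resting spores. Smaller traces were in library 2 of dark mycelium 60 h and library 1 of 84 h, the controls of starvation and drought. There 11 and 12 of the 12 were above both other libraries, by a median of 0.0251 and 0.0148%. The median of CopciAB_379049.T0 over the 189 libraries outside the basidiospore course was 1.83 CPM. The part of these traces in any comparison below was not tested beyond leaving the library out.

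Together the members made up 39.99, 40.02 and 36.38% of all counts in the 3 libraries of resting basidiospores (38.8 ± 2.09%, mean ± SD, n = 3). At 4 h their share was 15.6, 12.5 and 9.70%, at 8 h 1.82, 1.72 and 1.29%, and at 12 h 0.388, 0.349 and 0.220%. The libraries of the 4 times did not overlap. Outside the course the share lay between 0.0643 and 0.677% with a median of 0.112%, and it was highest in oidia at 0 h, with 0.598, 0.599 and 0.677%. Sclerotia followed with 0.670, 0.654 and 0.383%, then freezing with 0.372, 0.394 and 0.518% and sorbitol with 0.374, 0.276 and 0.596%, groups whose libraries overlap each other. Next was the control of the hypoxia treatment, with 0.235, 0.427 and 0.331%. Its mean was above those of peroxide (0.259%) and heat shock (0.222%). A share of counts cannot tell fewer cells of one kind from less RNA per cell.

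**Figure D1:**
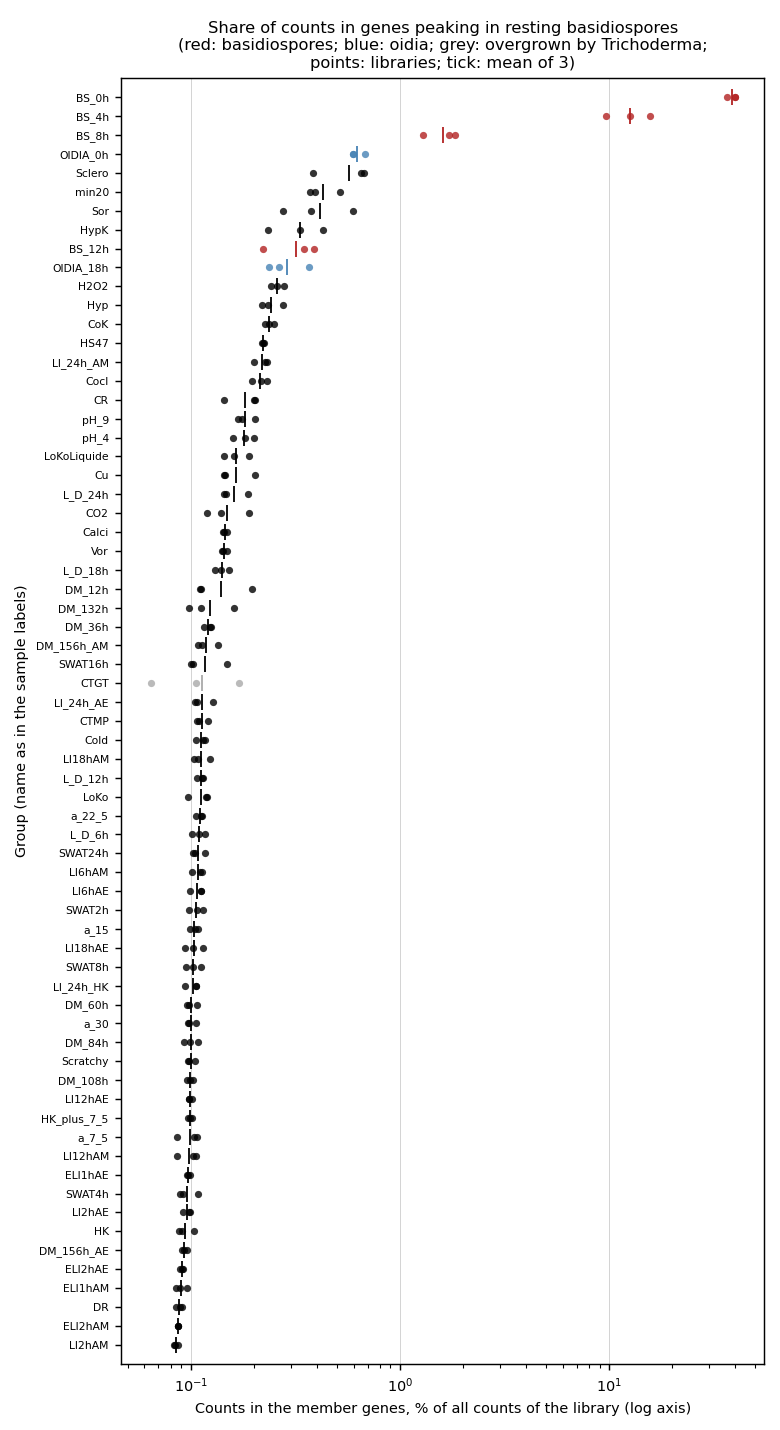
Share of all counts in the 153 members, in percent on a log axis, for each library (points) of the 67 groups, with the mean of 3 as a tick and group names as in the labels. Basidiospores at 0 h sit between 36.38 and 40.02%, and every library outside the basidiospore course is at 0.677% or less.

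The members dominated the transcripts of the resting spore. They were 8 of its 10 and 31 of its 50 most abundant genes. The member means ran from 22.3 to 45361 CPM with quartiles of 138.9, 390.5 and 2027 CPM, and 59 members were over 1000 CPM. The highest 8 stood at 13616 CPM or more and alone took 20.5% of the counts. The ratio to the next group had a median of 10.48, was over 10 in 79 members and over 100 in 8. The median coefficient of variation between the 3 libraries was 16.8%, and it was over 50% in 11 members.

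CopciAB_379049.T0, a gene of 5 exons with 1956 bp of coding sequence on scaffold 11 (352680 to 355429 in the authors' CopciAB V2 annotation, plus strand), led both the levels and the ratios. It stood at 52749, 48186 and 35148 CPM at 0 h, at 5662, 3194 and 2335 CPM at 4 h, and at 30.1 ± 4.97 and 16.8 ± 13.0 CPM at 8 and 12 h. Its ratio of 1482 to the next group, basidiospores at 8 h, compares with 652.9 for the member with the second largest. CopciAB_438154.T0, a short gene of 228 coding bp, was second with 38693, 40249 and 44642 CPM. It held on longer, with 29186, 22800 and 18813 CPM at 4 h and 2356 ± 145 CPM at 8 h. CopciAB_1001696.T0, with 222 coding bp, was at 38653, 36753 and 20604 CPM at 0 h, and its next highest group was the sclerotia with 1157 ± 564 CPM. CopciAB_441197.T0 had 25794, 25377 and 26928 CPM. Among the other 8 of the 12 most abundant members, CopciAB_448156.T0, CopciAB_467810.T0, CopciAB_363191.T0 and CopciAB_438892.T0 had means of 18841, 14443, 13769 and 13616 CPM. CopciAB_499066.T0, CopciAB_394838.T0, CopciAB_463314.T0 and CopciAB_445686.T0 had 9355, 7488, 7128 and 6975 CPM. The 12 together took 23.6% of the counts. High ratios also belonged to 2 less abundant genes, CopciAB_499996.T0 (2027 CPM, ratio 652.9) and CopciAB_382503.T0 (3732 CPM, ratio 432.9).

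**Figure D2:**
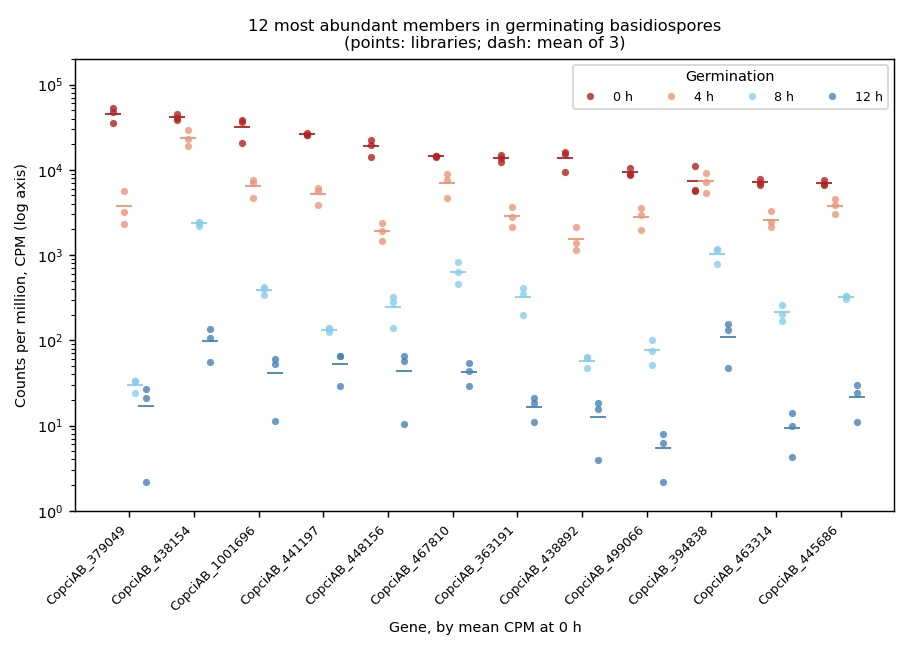
CPM on a log axis of the 12 most abundant members in the 3 libraries (points, with the mean as a dash) of basidiospores at 0, 4, 8 and 12 h. CopciAB_379049.T0 fell from a mean of 45361 CPM to 30.1 CPM at 8 h, while CopciAB_394838.T0 had 7488 and 7315 CPM at 0 and 4 h.

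The members left the transcript pool at very different speeds. At 4 h the median member had 32.0% of its 0 h level, with quartiles of 19.1 and 49.0% and a range from 0.361 to 97.7%. Under 10% was left in 22 members, and over 75% in 9. In 143 members every library at 4 h lay under every library at 0 h. The 3456 other genes at 20 CPM or more stood at a median of 133% of their 0 h level at 4 h. These percentages are of CPM and shrink with another scaling: with the trimmed mean of M values (TMM), which lowers the log2 ratio of 4 h to 0 h by 1.00 for every gene, the members' median was 16.2% and that of the other genes 66.9%, so that the level of the other genes lay above 0 h in CPM and below it with TMM. By 8 h the median member was at 5.89% and by 12 h at 0.982% of its 0 h level, and 77 members had under 1%.

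CopciAB_437384.T0 was the fastest to go, with 2832, 2916 and 391.7 CPM at 0 h and 8.36, 6.10 and 7.69 CPM at 4 h. Its neighbour CopciAB_499046.T0 had 154.5, 134.8 and 16.7 CPM and then 1.19, 1.48 and 1.98 CPM. CopciAB_500243.T0 went from 2001, 1832 and 442.0 to 30.9, 31.3 and 22.2 CPM, CopciAB_499131.T0, a gene of 1 exon, from 69.9, 108.1 and 7.86 to 2.71, 1.57 and 1.07 CPM, and CopciAB_438890.T0 from 2765, 2993 and 1360 to 113.5, 83.8 and 69.4 CPM. In all 5, library 3 was the lowest at 0 h.

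At the other end, 5 members kept 85.0% or more of their mean at 4 h. CopciAB_394838.T0 had 5607, 5785 and 11071 CPM at 0 h and 9300, 7258 and 5386 CPM at 4 h, so the groups overlapped, and 1037 ± 219 CPM at 8 h. CopciAB_1001820.T0 had 2182, 2137 and 3731 and then 3148, 2452 and 1918 CPM. CopciAB_361136.T0 had 3534, 3462 and 5177 and then 4157, 3809 and 2383 CPM. CopciAB_458014.T0 and CopciAB_394357.T0 kept 90.8 and 87.1%. In all 5, library 3 was the highest at 0 h and the libraries of the 2 times overlapped. For CopciAB_394838.T0 and CopciAB_1001820.T0, both other libraries at 0 h lay below the mean at 4 h. Without library 3 these genes would not meet the limit that 4 h be lower. Their membership and the share they kept therefore rest on that library. By 8 h the 5 were at 13.3 to 21.2% of their 0 h level. A further 4 genes met every limit except that their mean was higher at 4 h and are not members, among them CopciAB_421367.T0 with 3839 CPM at 0 h and 3891 CPM at 4 h.

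**Figure D3:**
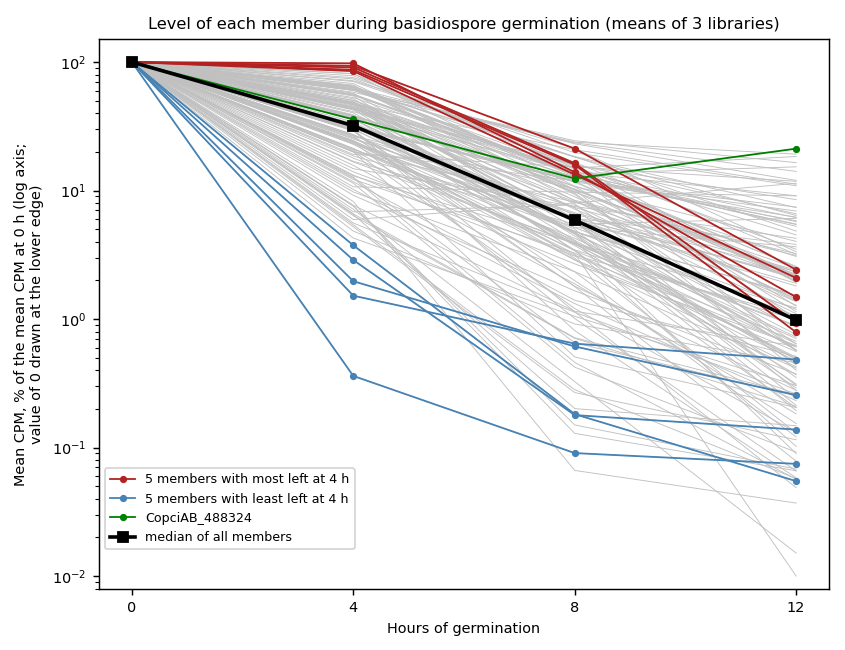
Mean CPM of each member at 0, 4, 8 and 12 h as a percentage of its mean at 0 h, on a log axis, with the median of the 153 members in black. The 5 members in red kept 85.0 to 97.7% at 4 h, the 5 in blue 0.361 to 3.75%, and CopciAB_488324.T0, in green, went from 12.4% at 8 h to 21.2% at 12 h.

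Between 8 and 12 h, a pair of groups that the rule bounded but did not set against each other, the loss went on. A filter on low counts covered all groups of the fit, so a member could pass it through a group outside this pair. No library of resting spores was in the fit. This left the 4 h group, where the rule only asked for a lower level. All 153 members were at 1 CPM or more in that group, against 145 members after 8 h and 128 after 12 h. A member low in both groups of the pair could therefore be tested through its level in 4 h spores. How far the counts below rest on this is not given. All 153 members passed the filter. Of these 110 were lower at 12 h by 2 times or more at an adjusted p under 0.05 (edgeR quasi-likelihood test with Benjamini-Hochberg adjustment over all genes tested, the rule for every call below), where 8.41% of all genes were, and 1 was higher, where 3.76% were. The median log2 change was -1.94 over the members and -0.04 over all genes. CopciAB_358486.T0 fell by 4.80 on the log2 scale (SE 0.398, adjusted p = 9.33e-05), from 50.7, 50.5 and 29.0 to 1.71, 1.11 and 1.03 CPM. CopciAB_471098.T0 fell by 5.25, from 8.89, 5.60 and 3.45 to 0.0812, 0.0856 and 0.230 CPM. CopciAB_540985.T0 went from 1.85, 0.667 and 0.514 CPM to 0 counts, at least 10.9-fold lower with a floor of 3 counts over the 3 libraries. The exception was CopciAB_488324.T0, which rose from 304.6, 336.6 and 294.3 to 533.2, 577.2 and 482.3 CPM (log2 change 1.01, SE 0.216, adjusted p = 0.00705). Its fold went below 2 without library 3 at 8 h (log2 change 0.975) or library 2 at 12 h (0.953).

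Outside the basidiospore course most members were detectable at a low level. The highest mean of a member in the other 62 groups, the overgrown mycelium left out, had a median of 19.4 CPM. It reached 20 CPM in 76 members and stayed under 1 CPM in 8, as it did in 1332 of all 13617 genes. At 1 CPM or more in all 62 groups were 45 members. Oidia at 0 h held this highest level in 48 members, heat shock in 13, primordia at 24 h in 12, and sclerotia and oidia at 18 h in 10 each. For the other counts of this paragraph no share of all genes is given, so they are not read as a trait of the members. Among the most abundant members, CopciAB_448156.T0 was at 646.4 ± 56.9 CPM in oidia at 0 h and CopciAB_438154.T0 at 1035 ± 497 CPM in sclerotia.

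In oidia, the other spore of the study, 122 members passed the filter. From 0 to 18 h 68 of them fell and 14 rose, against 27.4 and 26.6% of all genes, and the median log2 change was -1.19 (all genes 0.02). CopciAB_1002429.T0 had 4.17, 3.12 and 5.53 CPM at 0 h and 0 counts at 18 h, at least 43.3-fold lower, and CopciAB_543966.T0 was at least 33.6-fold lower. CopciAB_440575.T0 fell by 5.60 on the log2 scale (SE 0.603, adjusted p = 2.68e-06), from 10.1, 33.8 and 36.8 to 0.774, 0.0989 and 0.495 CPM. The strongest rises were those of CopciAB_37449.T0, from 0.961, 0.260 and 0.976 to 2.88, 3.66 and 6.33 CPM (log2 change 2.71), CopciAB_373210.T0, from 1.92, 1.30 and 2.602 to 12.6, 7.72 and 11.5 CPM (2.66), and CopciAB_263434.T0 (2.54). At 0 h these 3 were low in the oidia.

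In sclerotia, 46 of the 129 members tested were higher than in dark mycelium at 132 h and 17 lower, where 19.3 and 21.5% of all genes were. CopciAB_439412.T0 rose from 1.09, 1.64 and 4.08 to 286.6, 198.1 and 110.5 CPM (log2 change 6.74, SE 0.502, adjusted p = 5.99e-08). CopciAB_459362.T0 rose from 0.584, 0.457 and 5.62 to 234.6, 186.0 and 60.0 CPM (6.45, SE 0.762, adjusted p = 2.19e-05). In both, the highest control was library 3, which holds the traces described above, and sclerotium library 3 was the lowest treated one. CopciAB_363191.T0 fell from 11.9, 11.8 and 23.9 to 0.374, 0 and 1.11 CPM (log2 change -4.69, SE 0.532), and CopciAB_531585.T0 fell by 4.87 to a single count in the 3 libraries. CopciAB_453396.T0 was at 1.92, 0.822 and 2.45 CPM in the control and at 0 whole counts in sclerotia. Without control library 3, 50 members were higher and 16 lower. For counts with a library left out, here and below, no share of all genes is given. They therefore cannot be set against a background.

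Heat shock changed a similar number, with 41 of 129 members higher and 22 lower against a background of 27.5 and 28.4%, so the share of higher members was near that of all genes. CopciAB_501439.T0 rose from 1.09, 1.19 and 2.36 to 78.6, 93.1 and 84.6 CPM (log2 change 6.24, SE 0.418, adjusted p = 7.71e-10). CopciAB_433867.T0 rose from 0.167, 0.548 and 0.634 to 23.2, 19.9 and 22.7 CPM (6.03, SE 0.423). CopciAB_373210.T0 fell from 43.6, 21.1 and 42.6 to 0.755, 2.06 and 0.777 CPM (-4.47, SE 0.346) and CopciAB_367334.T0 by 3.69. CopciAB_328012.T0, at 0.167, 0.274 and 1.54 CPM in the control and at 0 whole counts after heat, lost its call without control library 3 (log2 change -4.09, adjusted p = 0.0761). Without that library 50 members were higher and 15 lower, counts that have no share of all genes beside them.

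Freezing gave 37 members higher and 5 lower of 129, against 8.81 and 7.23% of all genes. CopciAB_471986.T0 rose from 0.501, 0.183 and 0.997 to 26.8, 29.4 and 32.9 CPM (log2 change 5.74, adjusted p = 2.26e-07), and CopciAB_472767.T0 from 2.42, 3.74 and 8.07 to 157.5, 150.4 and 280.8 CPM (5.41, SE 0.552). Among those lower, CopciAB_543897.T0 fell from 11.7, 22.3 and 15.2 to 3.27, 5.19 and 3.44 CPM (-2.01, SE 0.338). The calls of CopciAB_379049.T0 (log2 change -2.84, adjusted p = 0.0230) and CopciAB_264262.T0 (-2.02, adjusted p = 0.0132) rested on control library 3. CopciAB_379049.T0 was at 2.54, 3.13 and 2.37 CPM after freezing and at 2.25, 6.30 and 50.6 CPM in the control, and without control library 3 its log2 change was -0.637 (adjusted p = 0.250). For CopciAB_264262.T0 it was -1.31 (adjusted p = 0.134). Without that library 49 members were higher and 3 lower, again without a share of all genes.

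Sorbitol, with its own liquid control, gave 43 members higher and 6 lower of 119, where 10.7 and 7.07% of all genes were. The median log2 change was 0.82 over the members tested. CopciAB_463314.T0, 1 of the 12 most abundant spore members, rose from 0.134, 0 and 0.0775 to 3.13, 4.97 and 6.56 CPM (5.79 on the log2 scale, SE 0.830, adjusted p = 2.21e-05), with only 3 counts in the control. CopciAB_1001696.T0 moved the other way, from 646.6, 858.4 and 474.0 to 248.3, 217.1 and 358.3 CPM (-1.31, SE 0.305, adjusted p = 0.00251). Without control library 2 its log2 change was -0.997, below a fold of 2. CopciAB_463517.T0 and CopciAB_496162.T0 fell by 1.44 and 1.36, and the latter lost its call without control library 2 (adjusted p = 0.0686) or sorbitol library 1 (0.0589).

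Peroxide gave 34 members higher and 6 lower of 119, against 15.5 and 8.95% of all genes. Without peroxide library 3 the number called was 26 in place of 40. CopciAB_162486.T0 had 1.44, 1.53 and 3.55 CPM after peroxide and 0 counts in the control, at least 24.8-fold higher. CopciAB_533340.T0 rose from 0.535, 0 and 0.465 to 5.11, 3.90 and 7.38 CPM (log2 change 3.26, SE 0.537) and CopciAB_23018.T0 by 3.02. CopciAB_394838.T0 fell from 51.5, 80.2 and 30.9 to 24.3, 19.9 and 16.1 CPM (-2.11, SE 0.532, adjusted p = 0.00477). CopciAB_105035.T0 (-1.93) and CopciAB_448156.T0 (-1.46) also fell, calls that were lost without some single libraries. Peroxide and sorbitol share their control libraries.

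Comparisons with separate controls can be set side by side. Of the members higher in sclerotia, 25 were also higher in sorbitol, 54.3% of the 46 and 58.1% of the 43, where among all genes called the shares were 22.1 and 40.8%. For freezing and sorbitol 20 members were shared, 54.1 and 46.5% of each list (all genes 32.1 and 27.0%). For heat shock and sorbitol 16 were shared, 39.0 and 37.2% (all genes 13.7 and 36.0%). With peroxide the shares were 23.9 and 32.4% for sclerotia (all genes 22.6 and 28.9%), 27.0 and 29.4% for freezing (26.5 and 15.5%) and 36.6 and 44.1% for heat shock (23.1 and 42.0%). Drought and sorbitol shared 3 members, 37.5 and 6.98% of the lists (all genes 15.6 and 14.2%). Of the members that fell in oidia by 18 h, 27 were among those higher in sclerotia, 39.7 and 58.7% of the lists (all genes 23.6 and 30.9%), and 26 among those higher in sorbitol, 38.2 and 60.5% (all genes 14.4 and 34.8%). With freezing the shares of the oidia list and the other list were 30.9 and 56.8% (all genes 11.9 and 34.3%). With heat shock they were 29.4 and 48.8% (all genes 35.7 and 32.9%), the first of them below that of all genes. Members were called higher more often than all genes to begin with, at 36.1 against 10.7% in sorbitol and 35.7 against 19.3% in sclerotia. A longer list raises the shared part by itself, so the shares are not read as a closer overlap among members. They describe the lists and were not tested.

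CopciAB_438891.T0, CopciAB_432230.T0, CopciAB_403217.T0, CopciAB_36149.T0 and CopciAB_439412.T0 were called higher in sclerotia, heat shock, freezing, sorbitol and peroxide, a choice made after their values were seen. The share of all genes called higher in all 5 is not given, so this number is not read as a trait of the members. CopciAB_438891.T0 rose from 0.584, 0.731 and 2.36 CPM in dark mycelium to 172.8, 88.6 and 55.5 CPM in sclerotia. The log2 changes of this gene were 6.71 in sclerotia, 5.79 after heat, 5.80 after freezing, 6.17 in sorbitol and 2.67 in peroxide. In oidia at 0 h it stood at 61.4, 75.6 and 79.5 CPM and at 18 h at 9.29, 4.75 and 23.7 CPM. CopciAB_432230.T0 rose in sorbitol from 1.34, 1.76 and 1.94 to 68.0, 34.0 and 187.7 CPM (log2 change 5.87, SE 0.717, adjusted p = 1.30e-05) and after heat to 21.7, 25.2 and 25.5 CPM (3.89). In peroxide the log2 changes of the 5 genes were 1.39 to 2.67 and in sorbitol 4.08 to 6.17, a difference that was not tested. In every one, sorbitol library 3 was above sorbitol library 2, by more than 2 times. High levels were not confined to sclerotia and treatments. In the control of the hypoxia treatment, a group in none of these comparisons, the 5 genes had means of 42.1, 53.3, 62.4, 20.3 and 62.3 CPM, in the order named above. Library 1 of that control was the lowest in each. After 24 h of hypoxia the means were 12.0, 20.9, 17.4, 12.2 and 10.3 CPM.

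**Figure D4:**
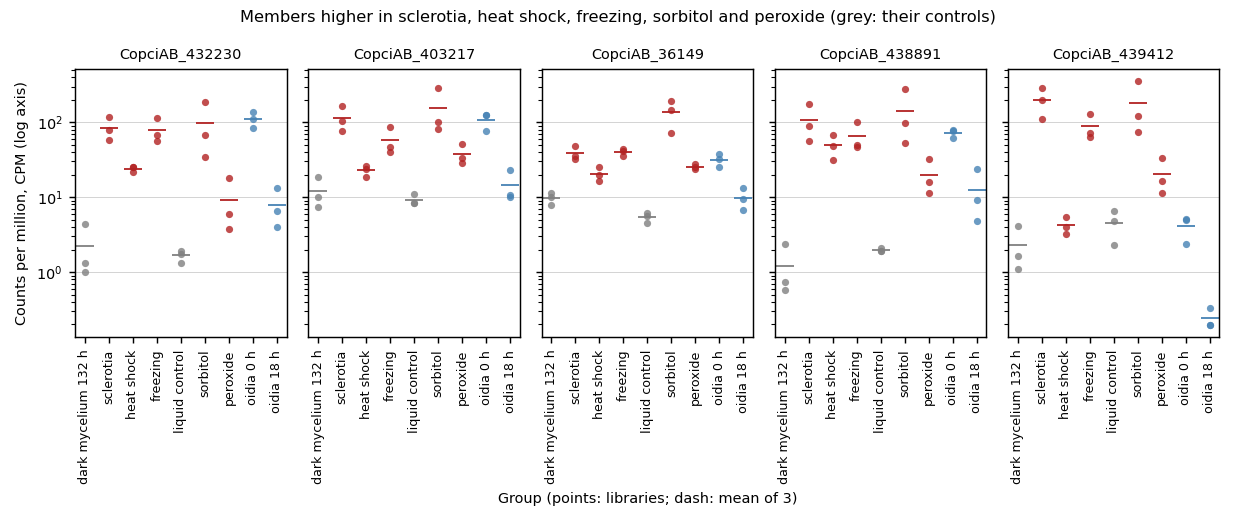
CPM on a log axis of 5 members in each library (points, with the mean as a dash) of sclerotia, 4 treatments, their controls (grey) and oidia (blue). CopciAB_438891.T0 lies at 31.5 CPM or more after heat, freezing and sorbitol and in sclerotia, and at 2.36 CPM or less in both controls.

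In the tissues around fruiting the members moved in both directions. In aerial against attached mycelium at 156 h, 7 of 134 were higher and 14 lower, against 7.15 and 10.0% of all genes, shares near the background. CopciAB_442940.T0 was lower in aerial mycelium, at 0.767, 1.04 and 1.38 against 30.2, 28.2 and 34.4 CPM (log2 change -4.95, SE 0.403, adjusted p = 3.80e-09). CopciAB_1001696.T0 was at 3.93, 3.62 and 3.32 against 40.7, 46.2 and 59.6 CPM (-3.87, SE 0.564), and CopciAB_448945.T0 (-3.61) was lower too. CopciAB_444272.T0 was higher, at 27.8, 22.8 and 19.6 against 8.40, 8.64 and 6.66 CPM (1.45, SE 0.315), as were CopciAB_446592.T0 (1.33) and CopciAB_92206.T0 (2.09), the calls of both being lost without some single libraries.

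More members were lower than higher in hyphal knots against attached mycelium of the same time. Of 134 members tested 34 were lower and 6 higher, where 8.73 and 7.86% of all genes were, and the median log2 change of those tested was -0.69. CopciAB_438154.T0, the second most abundant spore transcript, was at 0.958, 4.05 and 0.901 CPM in knots against 226.0, 128.0 and 59.9 CPM (log2 change -6.40, SE 1.31, adjusted p = 0.0012). CopciAB_1001696.T0, the third, was at 1.36, 9.92 and 2.70 against 107.5, 149.4 and 130.1 CPM (-5.03, SE 0.584). CopciAB_519084.T0 was at 0 counts in knots, at least 8.37-fold lower. Higher in knots were CopciAB_445621.T0, with 7.35, 1.49 and 1.56 CPM against 0 counts (at least 45.4-fold), CopciAB_1002597.T0, with 4.63, 0.661 and 1.97 CPM against 0 counts (at least 31.5-fold), and CopciAB_449260.T0 (2.26), whose call was lost without some single libraries.

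From knots to primordia at 24 h, 34 of 134 members were higher and 14 lower, against 13.6 and 18.4% of all genes. CopciAB_361136.T0 fell from 58.4, 74.2 and 70.3 to 18.0, 16.4 and 17.3 CPM (log2 change -2.36, SE 0.290, adjusted p = 1.03e-06), CopciAB_358486.T0 by 2.6 and CopciAB_430968.T0 by 3.04. The last of these calls was lost without knot library 2 (adjusted p = 0.126), primordium library 1 (0.0853) or primordium library 3 (0.0771). CopciAB_445611.T0 rose from 0 whole counts to 2.04, 3.97 and 4.48 CPM. CopciAB_499066.T0 (at least 41.3-fold higher) and CopciAB_1002429.T0 (at least 21.8-fold) owed most of their level to primordium library 2, which holds the traces described above. The first was at 0.157, 11.2 and 0.390 CPM and the second at 0.626, 4.52 and 0.780 CPM, and without that library the adjusted p of CopciAB_499066.T0 was 0.0715. Without it 22 members were higher and 15 lower. The knots are in both of the last comparisons.

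Starvation for 24 h gave 19 of 106 members higher and 11 lower, close to the 14.9 and 10.7% of all genes. CopciAB_394838.T0 was still at 97.7% of its mean level in 4 h spores, a share that rested on library 3 of the resting spores. After starvation it rose from 6.60, 7.52 and 10.1 to 116.1, 138.2 and 145.7 CPM (log2 change 4.12, SE 0.519, adjusted p = 1.79e-05). CopciAB_361136.T0, another that persisted, rose from 5.04, 4.91 and 6.48 to 44.3, 52.8 and 19.4 CPM (2.90, SE 0.805, adjusted p = 0.0101). CopciAB_463517.T0 fell from 8.17, 5.59 and 10.3 to 1.75, 2.20 and 0.130 CPM (-2.46, SE 0.520). CopciAB_379049.T0 fell from 1.91, 14.0 and 4.14 to 1.27, 1.36 and 0.909 CPM (-2.38, SE 0.567), a call lost without control library 2 (-1.28, adjusted p = 0.0628). CopciAB_430968.T0 (2.84) and CopciAB_442929.T0 (-3.27), with 3 counts in 1 of their groups, each lost the call without some single libraries.

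In ageing dark mycelium, 9 of 125 members were higher at 132 h than at 12 h and 5 lower, against 10.6 and 7.00% of all genes. The count depended on the libraries with traces. Without library 3 of the 12 h mycelium 22 members were higher and 2 lower, without library 3 of the 132 h mycelium 9 and 9, and without both, an alternative added after the traces were seen, 14 and 3. CopciAB_394838.T0 rose here too, from 13.8, 21.3 and 36.2 to 117.1, 71.2 and 121.4 CPM (log2 change 2.40, SE 0.464, adjusted p = 0.000904), and CopciAB_440575.T0 (2.68) and CopciAB_358486.T0 (1.93) were also higher. CopciAB_488324.T0 fell from 43.9, 42.1 and 48.4 to 14.8, 17.9 and 13.3 CPM (-1.25, SE 0.169), CopciAB_448187.T0 by 1.26 and CopciAB_105035.T0 by 1.66, the last losing its call without some single libraries. Drought gave 8 of 105 members higher and 14 lower, against 9.82 and 7.71% of all genes. Library 1 of the drought control holds the smaller traces described above. CopciAB_432230.T0 rose from 2.12, 2.02 and 1.30 to 13.3, 22.9 and 16.7 CPM (3.39, SE 0.346, adjusted p = 4.55e-06), as did CopciAB_450362.T0 (2.12) and CopciAB_430968.T0 (2.29). CopciAB_543897.T0 fell from 14.7, 13.1 and 13.4 to 1.89, 3.90 and 3.78 CPM (-1.99, SE 0.336), CopciAB_92206.T0 by 3.99 and CopciAB_438890.T0 by 1.98. Few counts lay behind the last of these, 2 in drought against 41 for CopciAB_92206.T0 and 12 against 53 for CopciAB_438890.T0.

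**Figure D5:**
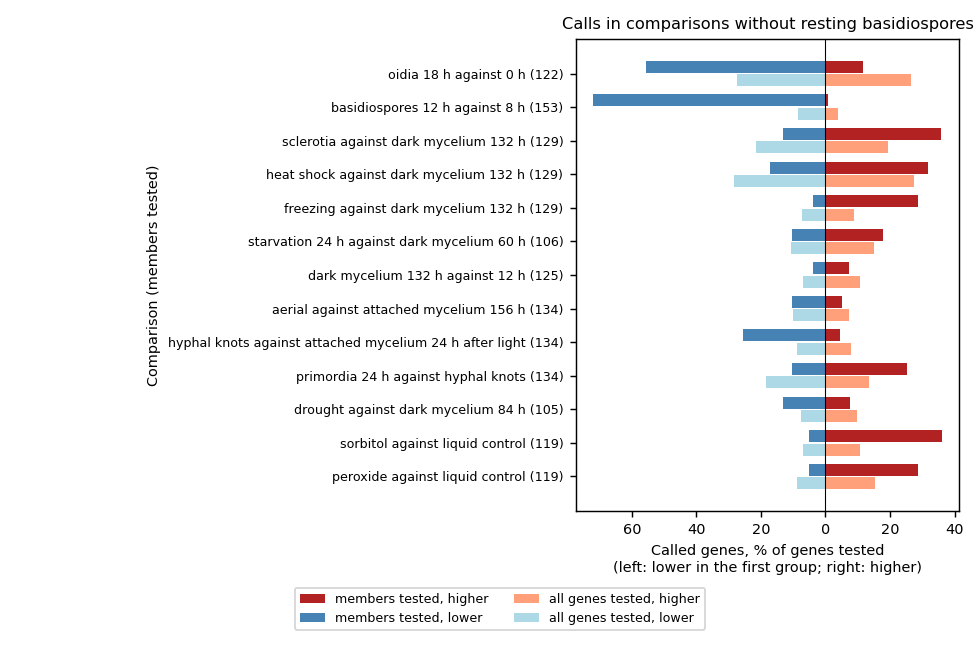
Percentage of the members tested (dark bars, their number in brackets) and of all genes tested (pale bars) called higher (right) or lower (left) in 13 comparisons that contain no library of resting basidiospores. The members were lower in 110 of 153 tests between 8 and 12 h of germination and higher in 43 of 119 tests in sorbitol.

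Across the 12 comparisons outside the basidiospore course, 91 members passed the filter in every one, 8 in none, and 16 were called in none. No share of all genes is set beside these counts, so they are not read as a trait of the members. The filter was applied once to all groups of a fit, so a member could be tested in a comparison through its level in another group of that fit.

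The gene models of the members were on median shorter than those of the whole annotation. They had a median of 4 exons and 903 bp of coding sequence, against 5 exons and 1113 bp for all 13617 genes and 5 exons and 1320 bp for the other 3456 genes at 20 CPM or more in resting spores. Genes of 10 exons or more made up 10.5% of the members, 16.4% of all genes and 17.5% of those 3456 genes. A coding sequence under 450 bp was as frequent among members as among all genes, 16.3% in both. Among the other 3456 genes at 20 CPM or more it was less frequent, at 11.3%. CopciAB_438154.T0, CopciAB_1001696.T0 and CopciAB_394838.T0, 3 of the 12 most abundant, had 228, 222 and 201 bp. The median annotated 3′ UTR was 125 bp, against 142 bp for all genes and 155 bp for those 3456 genes. An overlap with a gene on the other strand was annotated for 34 members (22.2%, all genes 25.6%), and since the strand setting of the counting is not given, reads of such pairs may be mixed. Nonzero values that were not whole equalled or outnumbered the whole ones in 2 members (1.31%, all genes 11.5%).

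Some members lie side by side. There were 8 runs of neighbouring members with 17 genes in all (11.1% of the members), 7 runs of 2 and 1 of 3. The run of 3 is on the plus strand of scaffold 9 between 1106011 and 1108845, where CopciAB_438890.T0, CopciAB_438891.T0 and CopciAB_438892.T0 follow each other with gaps of 420 and 266 bp. These 3 differed in their course. At 4 h CopciAB_438890.T0 had 3.75% of its 0 h level, CopciAB_438892.T0 11.4% and CopciAB_438891.T0 55.2%, and CopciAB_438891.T0 alone of the 3 was among the 5 genes called higher in sclerotia, heat shock, freezing, sorbitol and peroxide. On scaffold 11 between 376092 and 380245, CopciAB_499046.T0 and CopciAB_437384.T0, the pair with least left at 4 h, lie 90 bp apart on the minus strand. CopciAB_501439.T0 and CopciAB_432230.T0, genes of 222 and 198 coding bp and 2 exons each, lie 67 bp apart on the minus strand of scaffold 1 (759887 to 760824). They had 44.5 and 47.8% left at 4 h and 245.2 ± 84.2 and 110.8 ± 26.9 CPM in oidia at 0 h. In sorbitol CopciAB_501439.T0 had 2.46, 2.88 and 8.96 CPM, below the 68.0, 34.0 and 187.7 CPM of its neighbour. Of the 9 pairs of neighbours, 8 were on the same strand, where 48.1% of all 13597 neighbouring pairs are, and 6 had a gap under 150 bp, as 28.2% of same-strand pairs do.

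The limit of 4 times has no break at it. The last members were CopciAB_1001077.T0 (360 ± 41.6 CPM, ratio 4.08), CopciAB_1001587.T0 (25.7 ± 4.22 CPM, 4.08) and CopciAB_463517.T0 (69.3 ± 37.7 CPM, 4.06), with oidia at 0 h, heat shock and oidia at 18 h as the next highest groups. The first genes left out were CopciAB_426443.T0 (170 ± 24.9 CPM, ratio 3.97), CopciAB_463667.T0 (21.1 ± 3.27 CPM, 3.95) and CopciAB_1000353.T0 (66.1 ± 6.37 CPM, 3.94). When 2 of the libraries at 0 h chose the genes, the library left out was also 4 times or more over every other group in 143 of 154, 144 of 156 and 129 of 163 genes, for libraries 1, 2 and 3. Of the genes chosen, 149, 149 and 145 were members, and the lowest ratio in the library left out was 2.90, 2.98 and 0.864. The other groups were the same in both steps, so this describes only the spread of the libraries at 0 h and is no test of the list.

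In mycelium overgrown by Trichoderma for 60 h, which the rule left out, 67 members had more than 3 counts over the 3 libraries, whose totals of 213736, 533936 and 961041 were low. Of these 67, 10 (14.9%) were higher in every overgrown library than in every library of dark mycelium at 108 h, against 12.4% of all genes over 3 counts, a share near the background.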

How the data were processed

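Groups and replicate numbers of the 201 libraries come from the sample titles. The authors deposited 1 table of expected counts for 13617 genes, not normalized, of which 19.9% of the nonzero values are not whole, and their CopciAB V2 annotation. STAR 2.6.1a and featureCounts were used, per the submitters' processing notes. How strand and reads with more than 1 hit were handled is not given in the sources used here. In all 201 pairs of libraries of 1 group the difference was above sampling noise (chi-square of 2.39 or more per degree of freedom), so each counted as a replicate. The labels do not say whether replicates were separate cultures or spore harvests, so a p-value reflects the spread of these libraries alone and that spread may be technical. The members, comparisons and lists were chosen with earlier results of these data known.

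Levels are CPM of the deposited counts. For tests, counts were rounded and fitted with edgeR 4.0.16 (R 4.3.3, TMM scaling, filterByExpr with a minimum count of 10, robust quasi-likelihood test) in 8 fits of groups that share a control or a course, giving 13 comparisons, none with a library of basidiospores at 0 h. The rule had capped each of these groups at the same share of that level. CPM beside a test come from the rounded counts. A call needed a Benjamini-Hochberg adjusted p under 0.05 over all genes tested and a fold of 2. Alternatives were DESeq2 1.42.0, RLE scaling, no filter, the replicate number as a block, only the 2 groups, and each library left out. Same-numbered libraries did not deviate together at a correlation over 0.1 in all 3 pairs of any comparison, so no block entered. Floors are 3 counts over a group, and they cover counting error only.

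Members named are the 12 most abundant at 0 h, the 5 with the largest ratio, the 5 with most and the 5 with least left at 4 h, up to 3 called members with the largest change each way in each comparison, the 3 on either side of the limit, the longest runs of neighbours and the 5 with the highest level outside 0 and 4 h. Others are named only where said. Of the 13617 identifiers 0 matched the reference table of 13657 genes of another strain, so lists by product name could not be applied and no sequence is shown.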

Additional observations from a re-analysis of the deposited data

Results flagged for a closer look

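Libraries that the choice of members did not use held transcripts of some members, at a share near the background. In mycelium overgrown by Trichoderma, 10 of the 67 members with more than 3 counts were higher in each of the 3 overgrown libraries than in each library of dark mycelium at 108 h, the labelled control. Among all genes over 3 counts this held for 12.4%, against 14.9% of these members. The part of the low totals of the overgrown libraries in this was not tested.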

How the results depend on the processing

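The list of members depends on the scaling and the limits. With TMM-scaled CPM 339 genes met the rule, all 153 members among them, with a limit of 8 times 90 did, and with basidiospores at 4 h held to the limit of 4 times 56 did. With TMM-scaled CPM the median percentage of the 0 h level at 4 h was 16.2 in place of 32.0, and the 12 most abundant members stood higher than given. Leaving out each library at 0 h in turn gave 154 to 163 genes. In the ageing dark mycelium 9 members were called when only the 2 groups were fitted, and leaving out single libraries gave 14 to 24, the latter without library 3 at 12 h. In peroxide leaving out single libraries gave 26 to 39. In the other 11 comparisons the number of members called stayed within 1.5 times under every alternative run. With the replicate block the number called was 115 between 8 and 12 h of germination (111 without it), 60 in sclerotia (63), 18 in drought (22) and 39 in peroxide (40). It moved no count by over 1.5 times, and among the named genes it ended 1 call, that of CopciAB_379049.T0 after freezing (log2 change -2.37, adjusted p = 0.0650). In aerial against attached mycelium and in primordia against knots every library correlated best with its own number, a hint from the data only. Of 834 values of single genes under alternatives, 777 kept their direction and side of the threshold or moved by less than the replicate SD, 45 lost the call, 0 changed sign and 12 moved by more than the replicate SD, the levels of the 12 most abundant members with TMM-scaled CPM.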
